A study of Tupaia belangeri with 15 samples.

Results

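The Iroquois homeobox family consists of 6 genes, IRX1 to IRX6, and it was followed here in the retina of the tree shrew (TS, Tupaia belangeri), a small diurnal mammal with a cone-rich retina. The members were taken by gene name, with earlier results of these data known. All 6 were among the 83605 features counted: IRX1 (TSDBGID.6358), IRX2 (TSDBGID.6095), IRX3 (TSDBGID.15835), IRX4 (TSDBGID.6100), IRX5 (TSDBGID.15508) and IRX6 (TSDBGID.15509). Single-nucleus RNA sequencing had been performed on 15 frozen retinas of untreated TSs, 5 each from the Infancy, Mature and Senile groups, and no strain, sex or age in days is given in the labels. The senile animals came from another institute than the infancy and mature animals, so source and senile stage cannot be told apart. The labels number the retinas without naming the animals, but the study describes a separate donor animal for each. The p-values between stages thus measure the spread between animals, and the permutation tests within retinas the spread of a difference over animals. In the model fits between cell sets the retina is a block. Their p-values measure the spread left within retinas, pooled over all sets of the fit, which are more values than there are animals.

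Iroquois genes encode transcription factors of the TALE class, whose homeodomain carries an extra loop and is followed by the conserved Iro box. In vertebrates they lie in a pair of clusters: IRX1, IRX2 and IRX4 in one, and IRX3, IRX5 and IRX6 in the other. In the mouse retina Irx5 is needed for the maturation of some OFF cone bipolar cells, Irx6 acts in OFF bipolar types, and several members are known from retinal ganglion cells. Bipolar cells (BCs) carry photoreceptor signals to the inner retina, as ON cells that respond to light onset or OFF cells that respond to light offset, and retinal ganglion cells (RGCs) send the result to the brain.

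Nuclei were assigned to cell classes by panels of marker genes that contained no IRX gene, so the IRX levels across these gates did not follow from how the gates were made. The libraries held 4269 to 9856 barcodes and 13429873 to 58734300 unique molecular identifiers (UMIs, tags that count each captured RNA molecule once), and 94982 of the 119765 nuclei that passed the quality filter were assigned. The RGC gate held 6506 nuclei, the BC gate 32449, the amacrine cell (AC) gate 24896, the Müller glia gate 8072 and the cone gate 17854. Some defining markers had no UMI in any library: POU4F2 of RGCs, GAD2 and SLC32A1 of ACs, CABP5 of BCs, and CNGA1 of rods. The summed panel of the 8 RGC markers, 7 of them with UMIs, ran from 826 to 2288 UMIs per 1000000 in the RGC gate of the 15 retinas, against a median of 80.8 in the BC gate. Any 2 libraries shared 4 to 30 barcodes. A level is given below as counts per 1000000 (CPM), the UMIs of a gene per 1000000 UMIs of all genes in the same gate and retina, and as mean ± SD over retinas. The family was sparse: the 6 genes had 1137, 563, 848, 2021, 2638 and 2171 UMIs in order from IRX1 to IRX6, over all retinas together. Noncoding features named after the genes were counted apart from them. The largest, LINC-IRX3-1, had 4694 UMIs, more than any member, and whether it holds reads of IRX3 was not tested.

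The 6 genes fell into different places in the retina. Of the UMIs in assigned nuclei, the RGC gate held 90.9% for IRX1, 87.4% for IRX4 and 78.7% for IRX2. IRX3 was divided between the RGC gate with 50.5% and the BC gate with 30.2%. IRX5 was spread over Müller glia with 36.1%, BCs with 33.8% and RGCs with 18.4%. IRX6 was held mostly by BCs, with 52.8%, and by RGCs, with 18.6%. These shares rest on how many nuclei each gate had, and the levels per gate are given next.

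**Figure D1:**
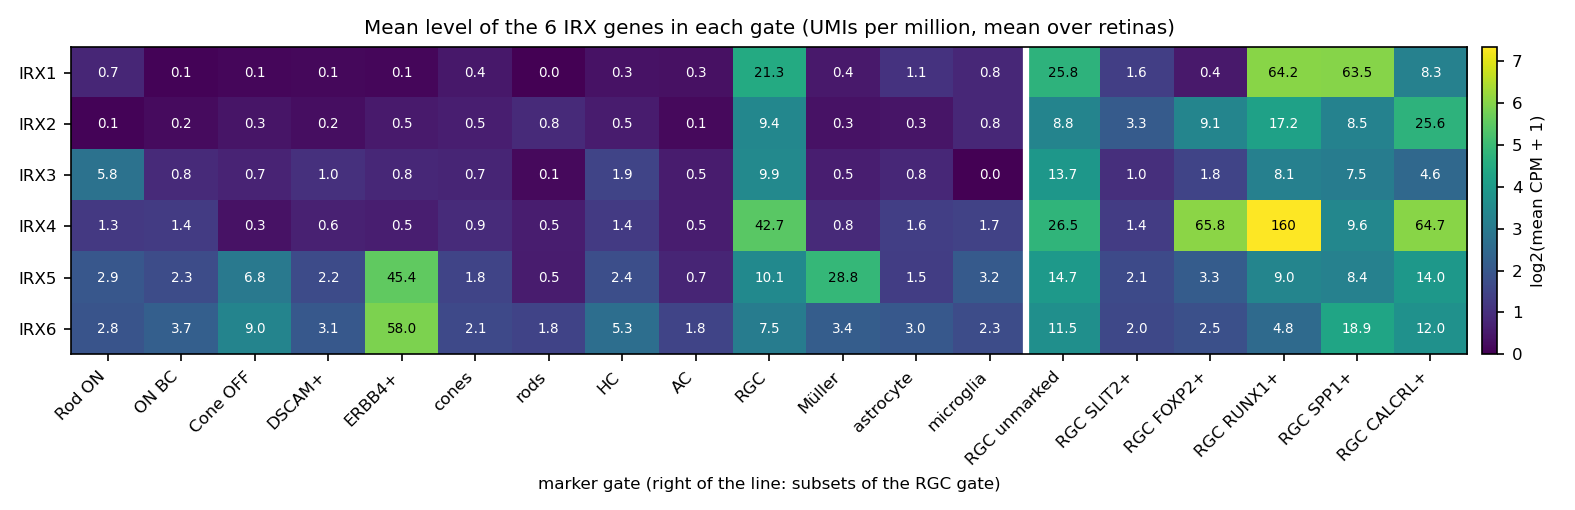
Mean level of the 6 IRX genes in 13 marker gates and, right of the line, in 6 subsets of the RGC gate. Cells print the mean CPM over retinas and the color scale is log2(mean CPM + 1). IRX1, IRX2 and IRX4 are high in the RGC column and low elsewhere. IRX5 and IRX6 have their highest means in the ERBB4+ bipolar gate, which for IRX5 was not told apart from Müller glia.

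Levels were first ordered over 13 gates that do not overlap (5 bipolar sets, cones, rods, horizontal cells, ACs, RGCs, Müller glia, astrocytes and microglia), and each gate was compared with the next one within retinas by a 2-sided exact sign-flip permutation test on log2(CPM + 1). Of the 72 neighbouring pairs, 7 passed an adjusted p of 0.05, so most neighbours in these orders did not differ beyond their spread. With 15 retinas the smallest p this test can give is 6.1e-05.

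IRX1, IRX2 and IRX4, the members of one cluster, were RGC genes in these retinas. IRX4, whose chick counterpart is known for a part in the path of RGC axons, ranged from 20.9 to 69.3 CPM in the RGC gate, with a median of 40.8. Its mean there was 42.7 ± 13.6 CPM (SD, n = 15), and the next gate, microglia, had 1.74 ± 4.58 CPM with no IRX4 UMI in 13 retinas. The RGC level was above the microglial one in all 15 retinas, by 4.88 on the log2(CPM + 1) scale (exact permutation p = 6.10e-05, adjusted p = 0.0011). IRX1 ranged from 8.80 to 36.9 CPM with a median of 18.7 in the RGC gate, a mean of 21.3 ± 8.73, and exceeded the next gate, astrocytes, in all 15 retinas, by 3.83 on that scale (exact permutation, adjusted p = 0.0011). Not one IRX1 UMI was found in the rod gate, where 3 UMIs of the 3060297 would have been 0.980 CPM. IRX2 ranged from 4.40 to 18.4 CPM with a median of 8.57, and its mean of 9.45 ± 3.77 was above that of rods in 14 of 14 retinas with a rod gate, by 2.83 (exact permutation, adjusted p = 0.00176). The lowest RGC value of each of these genes stood above its mean in every other gate, and below the RGCs no neighbours in the order of any of the 3 genes were told apart.

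RGCs were then compared with ACs, which share the inner retina, by edgeR's quasi-likelihood test on counts summed per retina and class, with the retina as a block. All 6 members were higher in RGCs, where 27.1% of the 18843 features tested were called higher. The log2 fold changes were 6.59 for IRX4 (SE 0.21), 6.40 for IRX1 (SE 0.30) and 5.66 for IRX2 (SE 0.31). IRX3 and IRX5 rose by 4.33 (SE 0.22) and 3.77 (SE 0.19), and IRX6 by 2.12 (SE 0.19). IRX1 to IRX4 passed the filter on low counts through the RGC gate, in which they are high, so their entry into this test was not independent of its outcome. Their differences are therefore given as sizes without a p. In the AC gate the mean levels lay between 0.141 CPM for IRX2 and 1.85 CPM for IRX6.

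Against BCs the family split. IRX1 to IRX4 entered this fit through the RGC gate as well, so their differences are given as sizes without a p. IRX1, IRX4 and IRX2 were higher in RGCs by 6.42, 5.64 and 4.83 on the log2 scale (SE 0.30, 0.19 and 0.28), and IRX3 by 2.25 (SE 0.18). IRX5 was higher by 0.52 (SE 0.15, edgeR adjusted p = 0.00136), while IRX6 was lower in RGCs by a log2 fold change of -0.38 (SE 0.16, edgeR adjusted p = 0.0325). Of all features tested, 34.6% were called higher and 35.4% lower in this comparison. The call of IRX6 was lost when Mature 1 (adjusted p = 0.0751), Mature 2 (0.0525), Senile 1 (0.0702) or Senile 5 (0.0537) was left out. The 10 markers of the BC panel, with CABP5 at 0, summed to a median of 1683 CPM in the RGC gate and 652 in the AC gate, against 17348 in BCs, and their part in the RGC levels of IRX5 and IRX6 was not tested.

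Of 17 ganglion cell transcription factors tested among 20 listed, 14 were higher and 1 lower in RGCs than in ACs, with a median log2 fold change of 2.05. TFAP2D and RUNX1 were higher by 7.17 and 6.21. Among the classes of this fit both were high in RGCs alone (TFAP2D 94.3 CPM there and 0.614 in ACs, RUNX1 38.5 and 0.459). These and other listed factors like them passed the filter on low counts through the RGC gate. The count of 14 was therefore not independent of how the factors entered the test and is given as a description. POU4F1, a POU-domain factor of RGC differentiation with a log2 fold change of 5.37, is 1 of the 14 but also a marker of the RGC panel, so its direction followed from the gate. Of 8 other TALE genes tested among 12 listed, 1 was higher, 4 were lower and 3 were not called, where 28.7% of all features were called lower, with PBX3, a partner of Hox proteins, higher by 1.15 and MEIS2 lower by a log2 fold change of -1.62.

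The RGC gate was then divided by the marker genes SLIT2, FOXP2, RUNX1, SPP1 and CALCRL, each set holding nuclei with at least 2 UMIs of 1 of these genes and none passing for another, and the unmarked set holding the 2754 nuclei with no UMI of any of the 5. IRX4 and IRX1 took different subsets. IRX4 was highest in RUNX1+ RGCs, where it ranged from 43.5 to 265 CPM over 11 retinas with a median of 143, and its mean of 160 ± 61.6 CPM compared with 26.5 ± 10.6 in unmarked RGCs. It was also high in FOXP2+ RGCs, with 35.4 to 149 CPM and a mean of 65.8 ± 32.4 (n = 12), and low in SLIT2+ RGCs, with a mean of 1.45 CPM and no UMI in 8 of 12 retinas. IRX1 was high in RUNX1+ RGCs, at 31.2 to 103 CPM with a mean of 64.2 ± 23.3, and in SPP1+ RGCs, at 28.7 to 115 CPM with a mean of 63.5 ± 30.9 (n = 7). It was at or near 0 in FOXP2+ RGCs, with a mean of 0.403 CPM and no UMI in 10 of 12 retinas, and low in SLIT2+ RGCs, with 1.57 CPM. FOXP2+ RGCs thus carried IRX4 without IRX1 above 2.75 CPM in any retina, SPP1+ RGCs carried IRX1 with little IRX4 (9.59 ± 13.8 CPM, at 0 in 4 of 7 retinas), and RUNX1+ RGCs carried both.

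**Figure D2:**
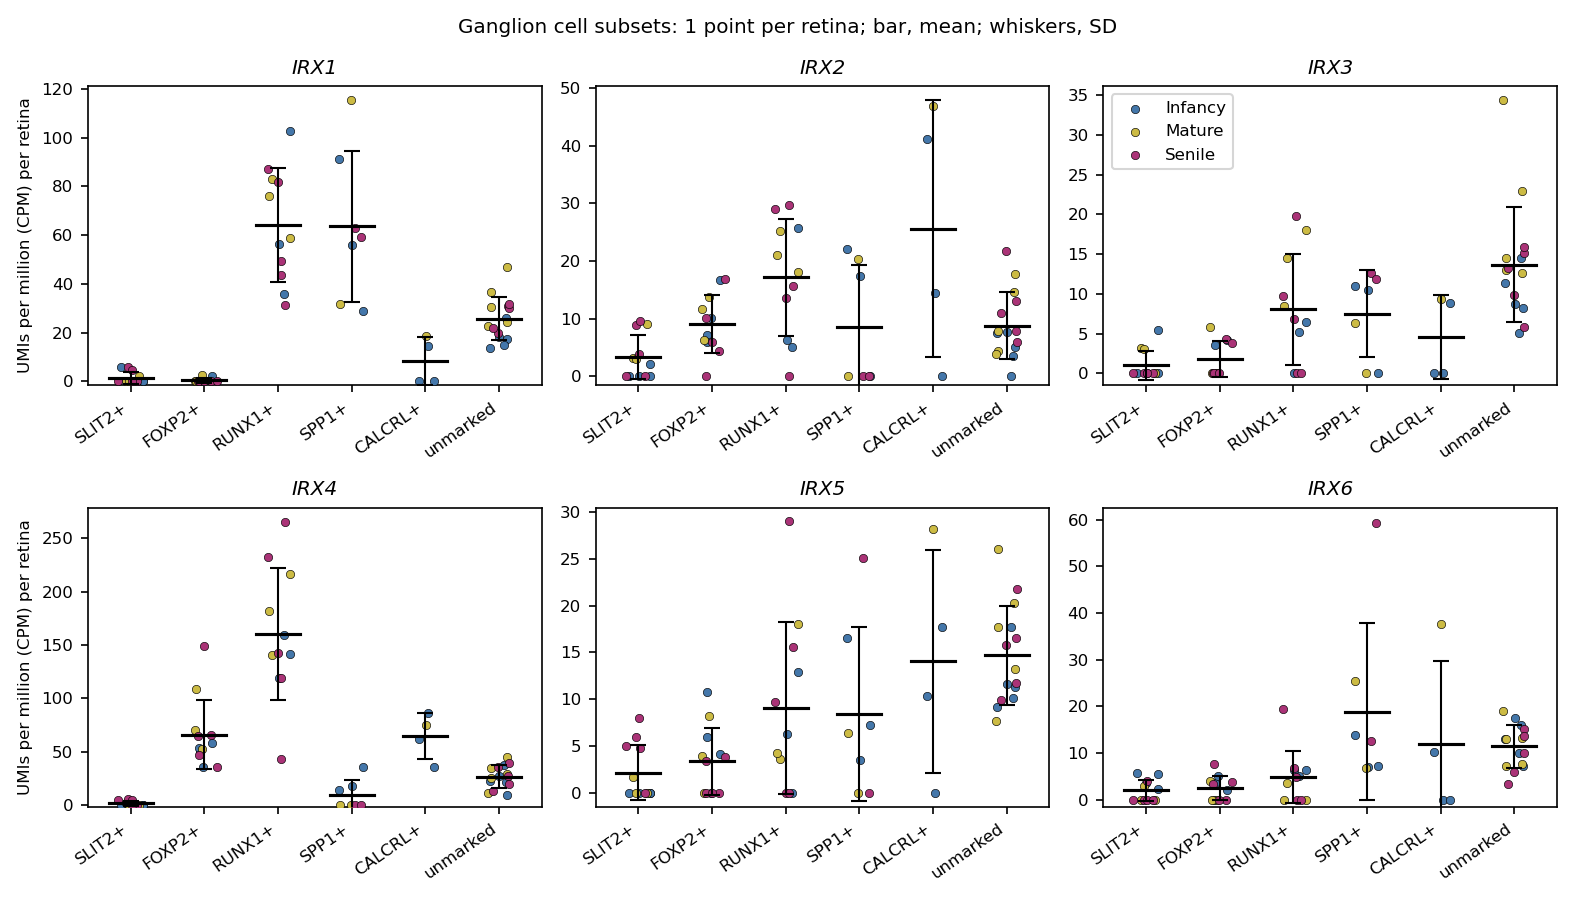
IRX levels in subsets of the RGC gate. Each point is 1 retina (CPM, linear axis from near 0), colored by stage, the bar is the mean and the whiskers are the SD. IRX4 lies highest in the RUNX1+ subset, from 43.5 to 265 CPM, and IRX1 in the RUNX1+ and SPP1+ subsets, while IRX3, IRX5 and IRX6 lie low in SLIT2+ and FOXP2+ RGCs.

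In one edgeR fit over these subsets, 7270 features were tested, and IRX1 and IRX4 were the members with enough counts. IRX4 passed the filter on low counts mainly through RUNX1+ and FOXP2+ RGCs and IRX1 through RUNX1+ and SPP1+ RGCs, so the higher values of these pairs were not independent of how the genes entered the test. These higher values are therefore given as sizes without a p. RUNX1+ RGCs had more IRX4 than unmarked RGCs by 2.61 on the log2 scale (SE 0.14) and more IRX1 by 1.33 (SE 0.20), with 10.4% of features called higher. FOXP2+ RGCs had more IRX4 by 1.38 (SE 0.14) and less IRX1 by a log2 fold change of -4.98 (SE 0.45, edgeR adjusted p = 4.83e-15), with 10.4% of features called higher and 9.16% lower. In SLIT2+ RGCs both were lower, IRX1 by -4.02 (SE 0.39) and IRX4 by -3.94 (SE 0.37, edgeR adjusted p = 2.66e-14), where 11.1% of features were called lower. With the nuclei of most UMIs left out, these values were -1.95 and -1.55 and neither passed (edgeR adjusted p = 0.23 and 0.212). Whether the nuclei left out were doublets was not tested. SLIT2+ nuclei were the deepest of the 6 subsets, with a median of 7794 UMIs, against 5428 in RUNX1+ and 4507 in unmarked nuclei. SPP1+ RGCs had more IRX1 by 1.31 (SE 0.23, 6.34% of features called higher) and less IRX4 by a log2 fold change of -1.09 (SE 0.35, edgeR adjusted p = 0.0257, 7.92% called lower), the latter lost without any one of Mature 1, Mature 2, Senile 1 or Senile 2. The IRX4 call in SPP1+ RGCs was also lost with DESeq2 (adjusted p = 0.0508), with a stricter gate (0.274), without the nuclei of most UMIs (0.535) and without the retina block (0.0741).

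CALCRL+ RGCs, with at least 10 nuclei in only 4 retinas, had IRX4 at 35.4 to 86.4 CPM and a mean of 64.7 ± 21.9. The fitted level was above unmarked RGCs by 1.52 on the log2 scale (SE 0.37), where 2.39% of features were called higher. This value is a size without a p, since IRX4 is high in this subset as well. It did not pass with no filter on low counts (edgeR adjusted p = 0.182) or without the retina block (0.0984). Within retinas CALCRL+ exceeded unmarked RGCs in 4 of 4, by 1.57 on the log2(CPM + 1) scale (exact permutation p = 0.125, adjusted p = 0.417). IRX1 in the same nuclei did not pass (log2 fold change -1.62, SE 0.74, edgeR adjusted p = 0.278). When neighbouring subsets in the order of levels were compared within retinas, none of 30 pairs passed after adjustment, and RUNX1+ over FOXP2+ RGCs for IRX4 was the nearest among those named here (1.20 on the log2(CPM + 1) scale, higher in 10 of 11 retinas, exact permutation p = 0.00195, adjusted p = 0.0586).

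These differences were also visible nucleus by nucleus. IRX4 was detected in 60.3% of RUNX1+ nuclei (exact 95% interval 54.5% to 65.8%, covering counting error only) and in 0.169% of AC nuclei, which have little of it, at median depths of 5428 and 3577 UMIs. After thinning each nucleus to 2000 UMIs, with shallower nuclei left out here and below, the RUNX1+ share was 30.9%. In the other subsets IRX4 was detected in 48.3% of CALCRL+, 24.4% of FOXP2+, 10.2% of unmarked and 6.80% of SPP1+ nuclei, or 22.4%, 9.26%, 4.93% and 1.48% after thinning. IRX1 was detected in 34.8% of RUNX1+, 28.6% of SPP1+, 8.71% of unmarked and 0.303% of FOXP2+ nuclei, and in 0.0844% of AC nuclei. By the number of RUNX1 UMIs, mean IRX4 was 32.9 CPM in RGCs with none, 116 CPM with 1 (n = 6 retinas), 162 CPM with 2 to 4 (n = 7) and 178 CPM with 5 or more (n = 3). Mean IRX1 was 25.0 CPM in RGCs with no FOXP2 UMI and 0.291 CPM in those with the most. Among 6053 thinned RGC nuclei, 255 had an IRX1 UMI, 448 an IRX4 UMI and 29 both. That is 11.4% of the IRX1 nuclei, against 7.23% of the rest with IRX4.

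IRX2, IRX3, IRX5 and IRX6 were too sparse in the subsets for edgeR and were compared within retinas, among 40 pairs tested in all. In SLIT2+ RGCs each of them was below unmarked RGCs: IRX3 by -3.14 and IRX5 by -2.83 on the log2(CPM + 1) scale in 12 of 12 retinas (exact permutation, adjusted p = 0.00163 each), and IRX6 by -2.31 and IRX2 by -1.84 in 11 of 12 (adjusted p = 0.00244 each). FOXP2+ RGCs had less IRX3 (-2.71) and IRX5 (-2.31), each in 12 of 12 retinas (exact permutation, adjusted p = 0.00163), and less IRX6 (-2.09, 11 of 12, adjusted p = 0.00244), but IRX2 did not pass (-0.29, exact permutation, adjusted p = 0.513), with 9.10 ± 5.10 CPM against 8.81 ± 5.85 in unmarked RGCs. In RUNX1+ RGCs IRX6 was lower (-1.62, 9 of 11 retinas, exact permutation, adjusted p = 0.0108 over the 40 pairs, and 0.0732 over the 30 neighbouring pairs above, where it did not pass) and IRX2, IRX3 and IRX5 did not pass. SPP1+ and CALCRL+ RGCs gave no difference that passed for these genes, and with 4 retinas the test cannot go below 0.125. SLIT2+ RGCs thus had lower means than unmarked RGCs for all 6 members, with the limit given above for IRX1 and IRX4. The unmarked set held the highest mean of IRX3 (13.7 ± 7.25 CPM) and IRX5 (14.7 ± 5.28 CPM) among the subsets.

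Within BCs the family was represented by IRX5, IRX6 and IRX3. OFF BCs were taken as nuclei with GRIK1, a kainate receptor subunit of OFF cells, at 15 or more UMIs per 10000, and were divided into ERBB4+ (2618 nuclei), DSCAM+ (10941) and Cone_OFF (4086, neither marker). ON BCs were divided by PRKCA and PCP2, markers of rod bipolar cells, into Rod_ON (4367) and ON_BC (2098). ON gates entered for 14 retinas, as Senile 2 had fewer than 10 nuclei in either.

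IRX5 and IRX6 were highest in the ERBB4+ OFF set. IRX6 ranged from 25.2 to 106 CPM over the 15 retinas in ERBB4+ nuclei with a median of 54.8 and a mean of 58.0 ± 24.0. The means were 9.00 ± 5.52 in Cone_OFF, 3.09 ± 1.93 in DSCAM+, 3.65 ± 6.64 in ON_BC and 2.76 ± 3.09 in Rod_ON. The lowest ERBB4+ retina stood above the highest value in any other bipolar gate, 23.7 CPM in ON_BC. IRX5 ranged from 9.62 to 98.1 CPM with a median of 46.4 and a mean of 45.4 ± 22.4 in ERBB4+ nuclei. Its other means were 6.83 ± 5.02 in Cone_OFF, 2.16 ± 1.45 in DSCAM+, 2.28 ± 4.14 in ON_BC and 2.94 ± 3.58 in Rod_ON. For IRX5 the ranges overlapped, since Infancy 3 had the lowest ERBB4+ value and Cone_OFF reached 16.8 CPM.

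**Figure D3:**
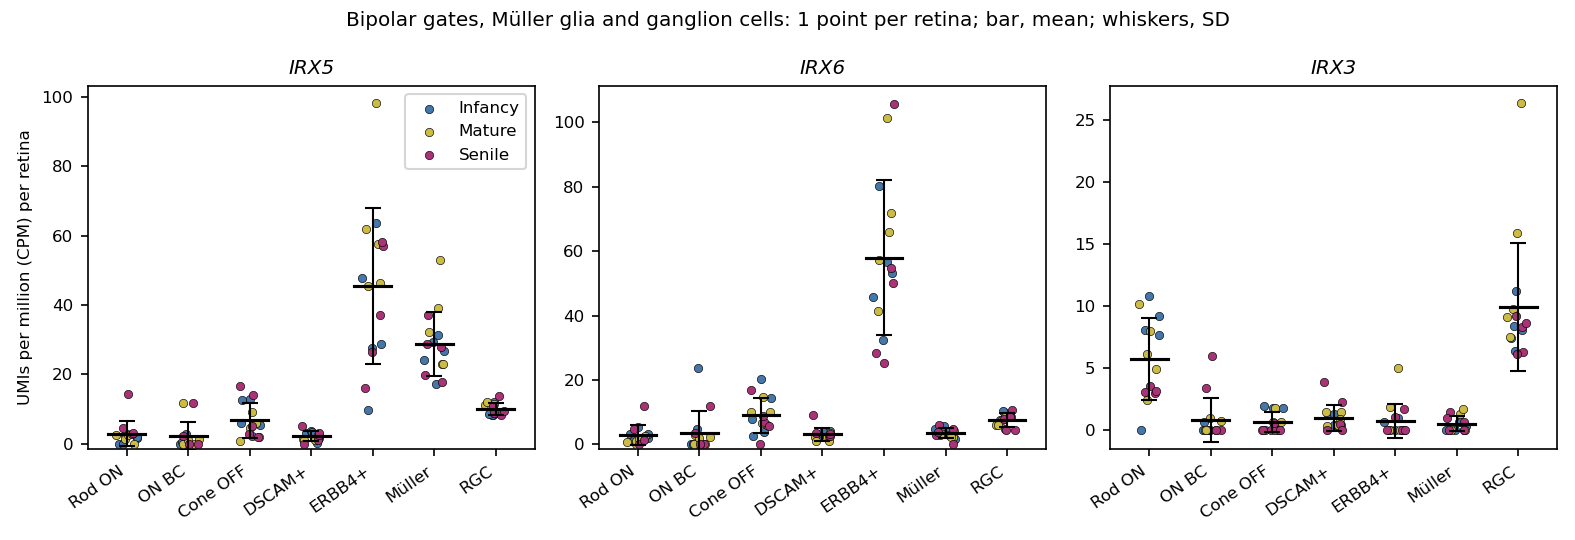
Levels of IRX5, IRX6 and IRX3 in the 5 bipolar gates, Müller glia and RGCs. Each point is 1 retina (CPM on a linear axis, scaled per gene), colored by stage, with the mean as a bar and the SD as whiskers. IRX5 and IRX6 stand highest in the ERBB4+ gate (means 45.4 and 58.0), IRX5 has a second high level in Müller glia (28.8), and IRX3 is raised in the Rod_ON gate (5.75).

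The edgeR fit over the 5 bipolar gates tested 9925 features, and IRX5 and IRX6 passed the filter on low counts through ERBB4+ nuclei, the gate in which they are high. Their fitted differences are therefore given as sizes without a p. OFF gates were above ON gates by 2.20 on the log2 scale for IRX5 (SE 0.30) and by 2.22 for IRX6 (SE 0.24), where 21.1% of features were called higher. ERBB4+ nuclei were above the other OFF gates by 3.80 for IRX5 (SE 0.20) and by 3.45 for IRX6 (SE 0.16), where 14.1% of features were called higher, and with no filter on low counts these values were 3.73 and 3.38. Within retinas, a test that needs no filter, ERBB4+ nuclei exceeded Cone_OFF nuclei by 2.67 on the log2(CPM + 1) scale for IRX5 (14 of 15 retinas, exact permutation, adjusted p = 0.00122) and by 2.74 for IRX6 (15 of 15, adjusted p = 4.88e-04). They exceeded DSCAM+ nuclei by 3.84 and 3.86, each in 15 of 15 retinas (exact permutation, adjusted p = 4.88e-04 each). These pairs belong to the 40 added to the planned orders. In the planned order, IRX6 in ERBB4+ over Cone_OFF nuclei had an adjusted p of 0.0011 (exact permutation). IRX5 fell below the filter on low counts, and was not tested, with a stricter gate and without Infancy 4, Infancy 5, Mature 3 or Senile 5, while IRX6 stayed in the fit in each of these. Between the ON gates there were few UMIs to compare, 40 of IRX5 in Rod_ON and 11 in ON_BC, and 35 and 20 of IRX6, against 481 and 544 in ERBB4+ nuclei, so a difference was hardly detectable at this depth. Rod_ON and ON_BC nuclei were not told apart by IRX5 (log2 fold change 0.68, SE 0.62, edgeR adjusted p = 0.477) or IRX6 (-0.34, SE 0.50, edgeR adjusted p = 0.698), where 29.2% of features were called. The OFF difference was held by the ERBB4+ set and, less so, by Cone_OFF: DSCAM+ nuclei were below Cone_OFF nuclei by -1.17 on the log2(CPM + 1) scale for IRX5 (13 of 15 retinas, exact permutation, adjusted p = 0.00163) and by -1.12 for IRX6 (13 of 15, adjusted p = 0.00819), and their means lay close to those of the ON gates.

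Both genes followed ERBB4, a receptor tyrosine kinase for neuregulins, within the OFF nuclei. From nuclei with no ERBB4 UMI, through those below 16 and from 16 to under 64 UMIs per 10000, to those with 64 or more, mean IRX6 was 2.82 ± 1.31, 9.33 ± 6.14, 22.1 ± 11.2 and 99.9 ± 42.6 CPM (n = 15 each). Mean IRX5 was 1.85 ± 1.56, 7.13 ± 4.54, 14.4 ± 7.0 and 78.9 ± 51.1 CPM. The last step was 2.32 for IRX6, upward in 15 of 15 retinas (exact permutation, adjusted p = 4.88e-04), and 2.06 for IRX5, upward in 13 of 15 (adjusted p = 0.0108), on the log2(CPM + 1) scale. The middle step, from below 16 to 16 to under 64, passed for IRX6 (1.08, exact permutation, adjusted p = 0.0445) and not for IRX5 (0.86, adjusted p = 0.0923).

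ERBB4+ nuclei were not uniform in the pair. Those that also had DSCAM, a cell adhesion molecule, at 8 or more UMIs per 10000 (1686 nuclei) had 59.8 ± 42.2 CPM of IRX5 and 69.8 ± 36.2 of IRX6, and those with less DSCAM (932 nuclei) had 18.6 ± 14.4 and 34.7 ± 26.2. The latter were lower by -1.98 for IRX5 (12 of 15 retinas, exact permutation, adjusted p = 0.0160) and by -1.27 for IRX6 (13 of 15, adjusted p = 0.0157). DSCAM without ERBB4 thus went with low IRX5 and IRX6, and DSCAM with ERBB4 with the higher levels of the ERBB4+ set. These splits were chosen after the data had been seen.

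**Figure D4:**
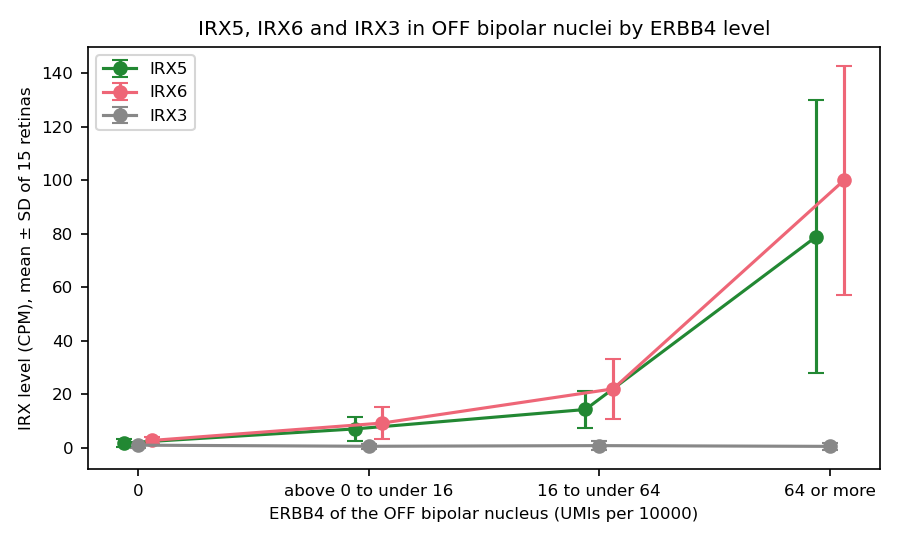
IRX5, IRX6 and IRX3 in OFF bipolar nuclei grouped by their own ERBB4 level (UMIs per 10000). Points are the mean CPM over 15 retinas, whiskers the SD, and points are offset sideways for legibility. IRX5 reaches 78.9 and IRX6 99.9 CPM in the highest bin, while IRX3 stays flat near the bottom of the axis.

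Per nucleus, IRX6 was detected in 17.2% of ERBB4+ nuclei (exact 95% interval 15.8% to 18.7%) and IRX5 in 14.2% (12.9% to 15.6%), against 0.639% and 0.329% of AC nuclei, at median depths of 3059 and 3577 UMIs. Thinned to 2000 UMIs, the shares were 10.4% and 8.87% in ERBB4+ nuclei and 0.267% and 0.181% in ACs. Among the other OFF gates, IRX6 was detected in 2.42% of Cone_OFF and 0.887% of DSCAM+ nuclei and IRX5 in 1.44% and 0.685%, at median depths of 2569 and 2491 UMIs. Thinned, these shares were 1.41% and 0.564% for IRX6 and 0.832% and 0.423% for IRX5. The thinned shares cover the deeper nuclei only, as 825 ERBB4+, 1683 Cone_OFF and 4557 DSCAM+ nuclei below 2000 UMIs were left out. Of 1793 thinned ERBB4+ nuclei, 159 had IRX5, 187 had IRX6 and 24 had both. That is 15.1% of the IRX5 nuclei with IRX6, against 9.98% of the rest. The summed Müller panel, whose cells also carry IRX5, was lower in ERBB4+ nuclei (median 387 CPM) than in Cone_OFF (1296) or DSCAM+ nuclei (879), and its part in the IRX5 levels of these gates was not tested.

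IRX3 was raised in the gate of rod bipolar cells. In Rod_ON nuclei it ranged from 0 to 10.8 CPM with a median of 5.54 and a mean of 5.75 ± 3.31 (n = 14), and 1 retina had no UMI. In ON_BC the mean was 0.844 ± 1.74, with no UMI in 9 of 14 retinas, and the OFF gates had means of 0.666 to 1.02 CPM. Of these 9, 6 were retinas counted with Cell Ranger 6.1.2, whose ON_BC gates held 174 nuclei and 490598 UMIs together. There 3 UMIs would have been 6.11 CPM, so these zeros cannot place IRX3 below its Rod_ON level. In the 8 retinas of version 7.0.1 the means were 6.26 ± 2.69 in Rod_ON and 1.48 ± 2.14 in ON_BC, with no UMI in 3. All 14 retinas enter the next value. Rod_ON exceeded ON_BC by 1.99 on the log2(CPM + 1) scale, in 11 of 14 retinas with 2 going the other way (exact permutation, adjusted p = 0.00244). It was detected in 2.43% of Rod_ON and 0.334% of ON_BC nuclei. RGCs had more IRX3 than Rod_ON nuclei by 0.86 (10 of 14 retinas, exact permutation, adjusted p = 0.0389), and RGCs stayed the higher gate under every alternative run. The call, not the direction, was lost with a stricter gate (1.03, adjusted p = 0.0741), after thinning (1.43, adjusted p = 0.0668), with a pseudocount of 10 in place of 1 (0.36, adjusted p = 0.0557), without the nuclei of most UMIs (0.94, adjusted p = 0.235), and in 10 of the 15 runs that left out 1 retina, exact permutation in each. With no filter on low counts, edgeR gave IRX3 a log2 fold change of 2.85 (SE 0.40) between Rod_ON and ON_BC, stated here as a size only.

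Other transcription factors were also compared between the bipolar gates. Of 15 bipolar factors tested among 18 listed, 9 were higher and 4 lower in OFF than in ON gates. Their median log2 fold change was 0.29 against 0.02 over all features, of which 21.1% were called higher and 16.7% lower. Between ERBB4+ and the other OFF gates, 4 were higher and 5 lower, where 14.1% of all features were called higher and 13.6% lower. Among them ZFHX4 was higher by 1.66 and BHLHE22, needed for some OFF types in mice, by 0.92, and the zinc finger factors FEZF1 and FEZF2 were lower by log2 fold changes of -1.04 and -0.69. Of the other TALE genes, 3 of 6 tested were higher and 1 lower in OFF gates, and MEIS1 was higher (0.63) and PBX3 lower (-0.47) in ERBB4+ nuclei. Of 7 genes tied to Irx5 or Irx6 in mouse OFF cells, 5 could be tested. In OFF gates TACR3, a tachykinin receptor, was higher by 2.75, NETO1, itself a marker of the BC panel, by 1.71, BHLHE22 by 1.12 and RCVRN, the recoverin gene, by 0.54, and VSX1 was lower by a log2 fold change of -0.33. In ERBB4+ nuclei against the other OFF gates, BHLHE22 was higher while TACR3 (-0.73) and RCVRN (-0.45) were lower, and NETO1 (-0.08) and VSX1 (0.11) did not pass.

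IRX5 had a second high level in Müller glia, the radial glia of the retina. It ranged from 17.3 to 53.1 CPM over the 15 retinas with a median of 28.0 and a mean of 28.8 ± 9.31, and exceeded RGCs (10.1 ± 1.74) in all 15 by 1.37 on the log2(CPM + 1) scale (exact permutation, adjusted p = 0.0011). Müller glia and ERBB4+ nuclei were not told apart by this gene: ERBB4+ was higher in 10 of 15 retinas by 0.51 (exact permutation p = 0.0222, adjusted p = 0.133). That value became -0.49 with a stricter gate, and the pair passed without the nuclei of most UMIs (adjusted p = 0.0357) and without Infancy 3 (adjusted p = 0.0352). In a comparison added after the data had been seen, Müller glia had more IRX5 than BCs by 2.00 on the log2 scale (SE 0.14, edgeR adjusted p = 4.44e-21, 29.4% of features called higher). They had less IRX3 (-1.99, SE 0.35) and less IRX6 (-1.41, SE 0.20, edgeR adjusted p = 5.79e-09, 35.4% called lower), while IRX1, IRX2 and IRX4 did not pass.

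The Müller signal of IRX5 did not carry IRX6 with it. Müller nuclei held 788 UMIs of IRX5 and 88 of IRX6, whereas ERBB4+ nuclei held 481 and 544. IRX5 was detected in 8.61% of Müller nuclei, and in 5.84% after thinning, which left out 3446 shallower nuclei. The Müller gate had UMIs of all 6 of its markers, summing to 3368 to 8372 CPM. Astrocytes, the other macroglia, had 1.51 ± 1.72 CPM of IRX5 with no UMI in 7 retinas. An antisense feature named IRX5-AS-1 was counted apart from IRX5 and had 324 UMIs, with a level of 0.613 ± 0.636 CPM in Müller glia and of 4.51 ± 2.33 CPM in RGCs. The strand setting of the counting is not given in the sources used here.

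Over the 13 gates the mean log2 levels of IRX1, IRX2 and IRX4 followed each other, with Pearson's r of 0.917 for IRX1 and IRX2, 0.924 for IRX2 and IRX4, and 0.977 for IRX1 and IRX4. That of IRX5 and IRX6 was 0.774, and IRX3 followed IRX1 and IRX4 (0.740 and 0.746) through the RGC gate. Among 14886 features, the ones most like IRX1 were GSR, the glutathione reductase gene, with r of 0.979, then IRX4, PALM3 and EXTL1, and those most like IRX4 were IRX1, SLC26A5, the prestin gene, with 0.975, and GSR. IRX6 was followed most closely by a LINE-like feature, LIN1li49, with 0.927, TAAR1, a trace amine receptor, with 0.902, and VNN3 with 0.891, and IRX5 by EVI5 with 0.811, RAB12 with 0.786 and IRX6. The 13 points come from the same 15 libraries and each pattern rests on 1 or 2 high gates, so these are descriptions.

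Stage was the last comparison, and no member was called in any of it. In RGCs all 6 members could be tested, in BCs IRX3, IRX5 and IRX6, in OFF BCs IRX5 and IRX6, in Müller glia IRX5, and in ON BCs none. Between the Senile and Infancy groups 1.27% of features were called in RGCs and 1.63% in BCs. Between the Mature and Infancy groups the shares were 0.782% and 0.975%, and 1.25% of features were called in OFF BCs and 0.926% in Müller glia between the Senile and Infancy groups, and 0.679% in ON BCs. Between the Senile and Mature groups edgeR called 0 features in RGCs, with 1114 at an unadjusted p under 0.05 and with 7 called higher and 2 lower by DESeq2, and 3 features, or 0.0172%, in BCs.

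IRX4 in RGCs, the most abundant RGC signal of the family, was 39.2 ± 17.4 CPM in the Infancy, 46.1 ± 8.40 in the Mature and 42.8 ± 15.5 in the Senile group (n = 5 each). The log2 fold change from Infancy to Senile was 0.0043 (SE 0.26, edgeR adjusted p = 1.00), and the groups overlapped throughout. The largest stage value of the family that edgeR gave in RGCs was that of IRX3. The 5 Mature retinas had 9.12, 9.82, 15.9, 7.51 and 26.4 CPM and the 5 Senile retinas 9.26, 6.34, 8.35, 6.14 and 8.70. The groups overlapped, with Mature 3 and Mature 5 apart from the rest, and the log2 fold change of -0.76 (SE 0.27, unadjusted p = 0.0132) did not pass (edgeR adjusted p = 0.623). In BCs IRX3 gave -0.67 for the same contrast (SE 0.34, edgeR adjusted p = 0.482).

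IRX5 in BCs had 7.61, 4.53, 4.25, 8.50 and 6.55 CPM in the Infancy retinas, 10.1, 6.76, 7.12, 5.10 and 7.67 in the Mature, and 6.98, 12.2, 8.55, 7.10 and 8.72 in the Senile. Means were 6.29 ± 1.87, 7.36 ± 1.83 and 8.71 ± 2.10, the groups overlapped, and the Senile to Infancy log2 fold change was 0.30 (SE 0.26, edgeR adjusted p = 0.764). Within OFF BCs, which still mix ERBB4+ with other nuclei, it was 0.02 (SE 0.28), and the part of the mix of nuclei in either value was not tested. IRX5 in Müller glia gave -0.09 (SE 0.26, edgeR adjusted p = 1.00). The difference between gates was not told apart by stage either, with 0 of 24 exact permutation tests past the threshold and an adjusted p of 0.714 at the lowest.

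**Figure D5:**
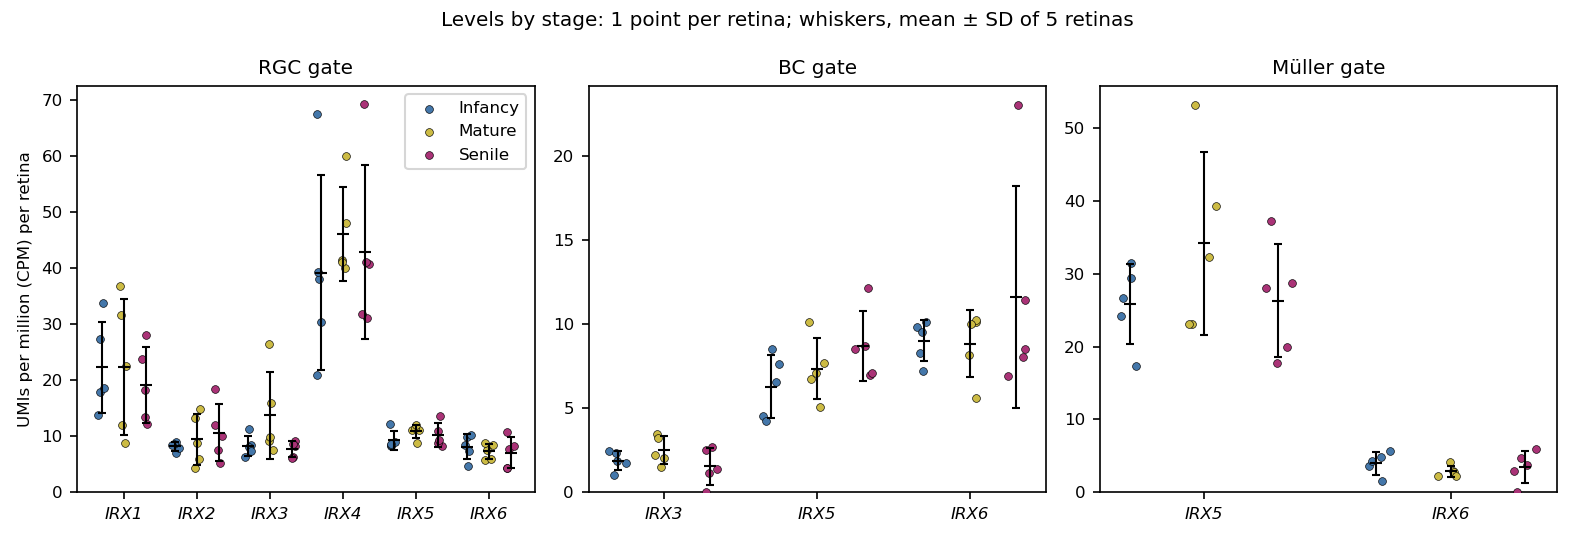
IRX levels by stage in the RGC, BC and Müller gates. Each point is 1 retina (CPM, linear axis), and whiskers are the mean ± SD of 5 retinas. The 3 stages overlap for every gene shown, including IRX4 in RGCs (means 39.2, 46.1 and 42.8) and IRX5 in BCs (6.29, 7.36 and 8.71).

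The files had been written by 2 versions of Cell Ranger, 7 libraries by version 6.1.2 and 8 by version 7.0.1, present in each stage, and the version was a term of the stage fits. IRX4 in RGCs was 38.7 CPM on average in the former and 46.2 in the latter, IRX1 in RGCs 24.3 and 18.6, IRX6 in ERBB4+ nuclei 66.3 and 50.8, IRX5 in ERBB4+ nuclei 37.7 ± 17.4 and 52.2 ± 25.1, and IRX5 in Müller glia 24.6 and 32.4. In RUNX1+ RGCs, IRX1 was 74.7 ± 22.0 CPM in the former (n = 7) and 45.7 ± 11.5 in the latter (n = 4), against 25.8 in unmarked RGCs of both, and IRX4 was 160 ± 37.3 and 161 ± 99.3 CPM. The version coincides with the deposit and with the molecule label (polyA RNA for 6.1.2, total RNA for 7.0.1), so these cannot be told apart in the levels above. Depth went with the version in part, with overlapping ranges (median UMIs per barcode 1461 to 3068 and 2268 to 5611 per library), and its part was not tested. No stage call of a member arose within either version.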

How the data were processed

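Nuclei of 15 frozen retinas (5 per stage) had been sequenced with the 10x Genomics 3' method. Per the file headers, the authors made the deposited UMI count matrices with Cell Ranger 6.1.2 (7 libraries) and 7.0.1 (8 libraries), while the submitters' processing notes name 5.0.1 and 7.0.1. The submitters' molecule label also changes between deposits. The reference was a TS genome annotation, and the settings for introns and strand are not given in the sources used here.

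Of 120437 barcodes, 119765 passed limits on detected genes (above 200, below 6000) and on the mitochondrial share of UMIs (below 5%). A class was assigned by its marker panel (a marker counted at a Poisson tail of 0.01, with a log-likelihood margin over 3 to the next class); the 891 nuclei with 2 or more markers of 2 classes were left out, and no doublet caller was run. Bipolar gates used GRIK1 (OFF at 15 or more UMIs per 10000; ON under 8, with an ISL1, TRPM1 or GRM6 UMI and at least 2000 UMIs), ERBB4 (16), DSCAM (8) and PRKCA plus PCP2 (4). No gate used an IRX gene, and gate limits were set after the marker values were seen. A gate entered for a retina from 10 nuclei.

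Counts were summed per retina and gate and tested with edgeR 4.0.16 (TMM, filterByExpr, quasi-likelihood, Benjamini-Hochberg over all features), with the retina as a block in gate fits and the Cell Ranger version as a term in stage fits. All 5 abundant classes, all 5 bipolar gates or all 6 ganglion subsets shared a fit. Gates were also compared by exact sign-flip permutation on log2(CPM + 1), with a pseudocount of 1. The scripts were tested on simulated data. The named genes were the 6 members, and the lists were TALE genes, bipolar factors, ganglion cell factors and genes tied to Irx5 or Irx6 in mice; members and lists were chosen with earlier results of these data known. Alternatives were DESeq2 1.42.0, no filter, stricter gates, nuclei of most UMIs left out (8 per 1000 for every 1000 nuclei), other blocks, and leaving out each retina. Intervals and floors cover counting error only.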

Additional observations from a re-analysis of the deposited data

Results flagged for a closer look

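In 5 of 36 groups of 5 retinas, 1 retina stood apart from the other 4 by Dixon's test (gap over range above 0.71), where chance gives about 1 group in 20. The groups were not independent, since OFF BCs are part of all BCs, so the count cannot be set directly against that rate. IRX6 in all BCs was 23.0 CPM in Senile 2, against 6.93 to 11.4 in the other senile retinas, and IRX6 in OFF BCs was 32.2 CPM in the same retina, against 8.17 to 12.9. IRX6 in OFF BCs of Mature 4 was low, at 7.71 CPM against 14.1 to 16.1 in the other mature retinas. IRX4 in RGCs was 69.3 CPM in Senile 4, against 31.1 to 41.2. IRX5 in RGCs was 12.2 CPM in Infancy 5, against 8.31 to 8.93. These retinas were kept in all values of the report, and leaving out any of them gave no stage call of a member.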

How the results depend on the processing

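Gates rest on marker limits. IRX1 to IRX4 in bipolar gates and IRX2, IRX3, IRX5 and IRX6 in ganglion subsets had too few counts for edgeR. The number of genes whose highest gate passed against the next one was 5, and 4 to 5 under the alternatives: IRX3 was lost with a stricter gate, after thinning and with a pseudocount of 10, and without the nuclei of most UMIs or without Infancy 3 it was lost while IRX5 passed. Of the counts of members called, 9 of 9 stage comparisons kept 0 under DESeq2, no filter, a stricter gate, within either Cell Ranger version and without any 1 retina.

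In OFF against ON nuclei and in ERBB4+ against the other OFF nuclei, IRX5 and IRX6 entered through the ERBB4+ gate, so their calls are not counted here. IRX5 fell below the filter on low counts with a stricter gate and after Infancy 4, Infancy 5, Mature 3 or Senile 5 was left out. With no filter the count of members called was 1 for Rod_ON against ON_BC, 6 for SLIT2+, 5 for FOXP2+, 4 for RUNX1+ and 0 for CALCRL+ RGCs. This count and those that follow have no share of all features beside them and are not read as results about the members. Without the nuclei of most UMIs the count was 0 for SLIT2+ and 1 for SPP1+ RGCs. It was 1 for SPP1+ RGCs with DESeq2, with a stricter gate and without the retina block, 1 to 2 when a retina was left out, and 0 for CALCRL+ RGCs without the retina block. The causes were not tested. Over all features, the calls moved by more than 1.5 times under some alternative in all comparisons but RGCs against ACs or BCs and Müller glia against BCs. Leave-outs aside, OFF against ON had 3753 calls (2560 to 5793), ERBB4+ against the other OFF nuclei 2744 (1415 to 3481), Rod_ON against ON_BC 2902 (1523 to 3966), and SLIT2+, FOXP2+, RUNX1+, SPP1+ and CALCRL+ RGCs 1647 (316 to 2342), 1424 (868 to 1980), 1478 (1021 to 2350), 1037 (207 to 1312) and 315 (163 to 674). Senile against infancy had 285 in BCs (113 to 965), 193 in RGCs (46 to 536), 188 in OFF BCs (72 to 742), 54 in ON BCs (35 to 425) and 112 in Müller glia (47 to 480), mature against infancy 170 in BCs (18 to 1003) and 119 in RGCs (17 to 482), and senile against mature 3 in BCs (0 to 558) and 0 in RGCs (0 to 180).

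Retinas of the same number in different stages deviated together in 13 of 15 pairs in BCs (r -0.35 to 0.55, median 0.30; other pairs -0.18) and in 13 of 15 in RGCs (r -0.34 to 0.54, median 0.36; other pairs -0.23), and the other 2 pairs of each gate did not. No label says that a number marks a shared litter, batch or day, and numbers 1 and 2 are all of Cell Ranger 6.1.2 and numbers 4 and 5 all of 7.0.1. The retinas were therefore not treated as paired. With the replicate block in place of the Cell Ranger version, 0 members were called in each stage comparison, and IRX1 (mature against infancy, RGC, log2 -0.0025) and IRX6 (mature against infancy, BC, -0.094) changed sign. With neither term IRX6 (mature against infancy, BC) was -0.055.

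The signs that changed belonged to values that had not been called. With a stricter gate these were, senile against infancy, IRX5 in BCs -0.0024, RGCs -0.24 and OFF BCs -0.28, IRX6 in BCs -0.33 and OFF BCs -0.51, and IRX4 -0.041 and IRX1 0.11 in RGCs. They were, mature against infancy, IRX6 -0.093 and IRX5 -0.35 in BCs and IRX5 -0.18 in RGCs, and, senile against mature, IRX6 -0.24 in BCs and IRX2 0.023 and IRX6 0.074 in RGCs. IRX5 in ERBB4+ against Müller nuclei became -0.49 and IRX1 in Müller glia against BCs -1.02. With DESeq2, IRX4 in RGCs was -0.0051 and IRX5 in OFF BCs -0.011 (senile against infancy). With no filter, the latter was -0.018 and IRX2 in Müller glia against BCs -0.047. Without the nuclei of most UMIs, senile against infancy gave IRX5 -0.031 and IRX1 0.079 in RGCs, senile against mature IRX6 0.42 in RGCs, and Müller glia against BCs IRX2 -0.12 and IRX1 -0.21.

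Within Cell Ranger 6.1.2, senile against infancy gave IRX2 -0.033 and IRX1 0.091 in RGCs and IRX5 0.28 in Müller glia, and senile against mature IRX5 -0.061 in BCs and IRX6 0.31 in RGCs. Within 7.0.1, senile against infancy gave IRX4 -0.0014 and IRX5 -0.0047 in RGCs, IRX6 -0.15 in BCs and -0.27 in OFF BCs, and IRX5 -0.35 in OFF BCs. Mature against infancy gave IRX6 -0.041 and IRX5 -0.15 in BCs and IRX1 -0.12 and IRX6 0.24 in RGCs, and senile against mature IRX6 -0.11 in BCs and IRX2 0.30 in RGCs.

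Leaving out 1 retina gave these ranges. In RGCs, senile against infancy ran from -0.050 to 0.10 for IRX5, -0.22 to 0.26 for IRX4 and -0.35 to 0.019 for IRX1. Mature against infancy ran from -0.025 to 0.45 for IRX4, -0.33 to 0.00087 for IRX6 and -0.13 to 0.45 for IRX1, and senile against mature from -0.29 to 0.12 for IRX2 and -0.28 to 0.057 for IRX6. In BCs, IRX6 ran from -0.031 to 0.34 (senile against infancy), -0.087 to 0.19 (mature against infancy) and -0.044 to 0.29 (senile against mature), and IRX5 from -0.0037 to 0.26 (senile against mature). In OFF BCs, senile against infancy ran from -0.13 to 0.17 for IRX5 and -0.17 to 0.21 for IRX6, and in Müller glia from -0.37 to 0.027 for IRX5. Müller glia against BCs ran from -0.11 to 0.25 for IRX2 and -0.28 to 1.10 for IRX1.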
